A study of Canis lupus familiaris with 30 samples.

Results

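The genes described are interferon response genes, a set of 37 listed members that cells switch on after sensing interferon or foreign nucleic acid. A member was included where one of the supplementary gene tables paired its symbol with an Ensembl gene ID of CanFam3.1, which was so for 5 of the 37: DDX58 (ENSCAFG00000001807), DTX3L (ENSCAFG00000011948), SAMD9L (ENSCAFG00000002007), IRF1 (ENSCAFG00000000851) and BST2 (ENSCAFG00000031353). The other 32 members, among them the MX, OAS and IFIT families, ISG15, STAT2, IRF7 and IRF9, had no ID in the tables used here and were not analysed, so the values stand for 5 genes and not for the whole response. The tables used held the genes ranked highest by p in the comparisons of the study, so that whether a member had an ID depended in part on measurements of the same tumors.

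Interferons are secreted proteins that bind receptors on the cell surface and activate the kinases JAK1, JAK2 and TYK2. Interferon gamma, made by T cells and natural killer cells, induces the transcription factor IRF1. In lymph nodes both lymphocytes and macrophages respond to them. DDX58 encodes RIG-I, a cytosolic sensor of viral RNA. DTX3L is a ubiquitin ligase that works in a complex with PARP9. SAMD9L restrains protein synthesis and the growth of blood cells. BST2, or tetherin, holds budding virus particles at the cell surface.

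Fine needle aspirates of enlarged lymph nodes were taken from 15 dogs with lymphoma, with 1 library from each dog at the six-week timepoint and 1 at the initial timepoint. The six-week libraries came 6 weeks into CHOP, a chemotherapy of cyclophosphamide, doxorubicin, vincristine and prednisone, and the initial libraries came from before treatment, when up to a single prednisone injection was allowed. The labels give 3 dogs as T-cell lymphoma (028, 036 and 038), 7 as B-cell lymphoma (003, 027, 029, 030, 033, 034 and 037) and 5 with no immunophenotype (024, 025, 026, 031_032 and 035), called not typed. Breed, sex and age were open at enrolment, and no dog without lymphoma and no untreated dog over the same time was included, so treatment and time cannot be told apart. Each value is 1 tumor at 1 time, and an aspirate holds tumor cells together with the other cells of the node.

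Levels are FPKM, a unit that scales a gene's reads by the length of its transcript and by the depth of the library. Differences are on the scale of log2(FPKM+1), where 1 unit is close to a 2-fold change for genes well above 1 FPKM. They were fitted with limma across all genes above a mean of 1 FPKM, and a gene was called at a Benjamini-Hochberg adjusted p under 0.05. The deposited read counts summed to between 4318394 and 43413353 a library. They followed the FPKM values in 9 dogs (Spearman correlation across genes of at least 0.880 in each library) and not in the other 6 (at most 0.117), so counts were used in those 9 dogs alone. In the 18 libraries of those dogs, BST2 had 121 to 1192 reads, DDX58 268 to 4371, IRF1 386 to 3246, DTX3L 828 to 8717 and SAMD9L 2416 to 30045. The reads of these genes in the other 6 dogs, dog 028 with the lowest BST2 level among them, were not used here.

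Several libraries went against or across their labels. Marker scores are means of log2(FPKM+1) over the markers found, which were PAX5 and CD22 for B cells (2 of 7 listed) and CD3D, CD3E, CD5, LCK, TRAT1 and ZAP70 for T cells (6 of 8 listed). At the initial timepoint dogs 028 and 036, labelled T-cell, had T-cell scores of 6.12 and 6.44 and B-cell scores of 1.74 and 0.728. Dog 038, also labelled T-cell, had a T-cell score of 2.73 and a B-cell score of 6.09, and dog 029, labelled B-cell, scored 6.00 for T cells and 4.89 for B cells. The six-week library of dog 036, the shallowest of all, scored 5.11 for T cells and 4.25 for B cells. Of the B-cell dogs, 029 and 034 scored 6.22 and 5.68 for T cells and 3.68 and 4.299 for B cells at 6 weeks. Dog 025, not typed, scored 6.05 for T cells and 4.02 for B cells at 6 weeks. Comparisons that use the T-cell label are given with and without dog 038.

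SAMD9L had the highest level of the 5 genes. Its median rank within a library was the 98.3 percentile of all gene IDs, against 92.4 for DTX3L, 89.3 for DDX58 and 87.9 for IRF1, and BST2 ranked lowest. Every library held at least 49.3 FPKM of SAMD9L, and the lowest BST2 level was 0.846 FPKM. All 5 genes passed the filter on low values.

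**Figure D1:**
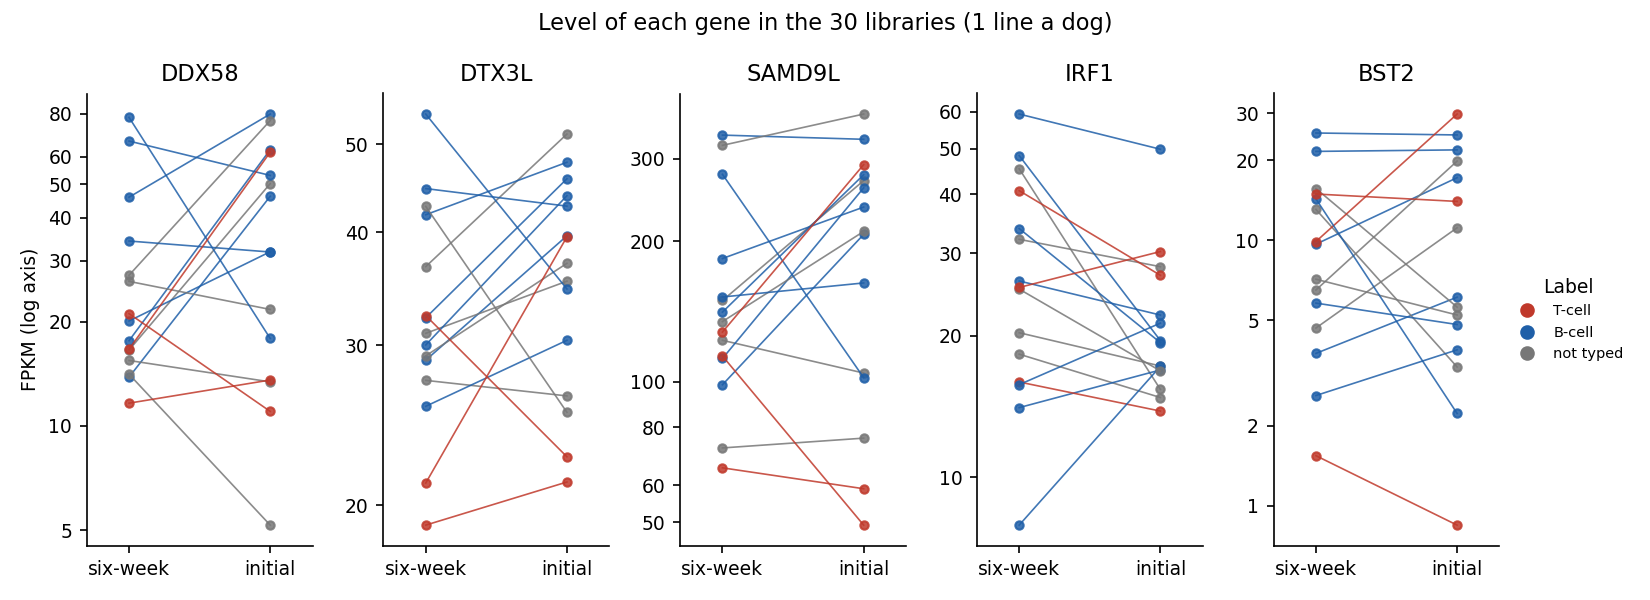
FPKM (log axis, scaled separately for each gene) of the 5 genes, six-week libraries on the left and initial libraries on the right of each panel, with 1 line for each of the 15 dogs coloured by label. Lines cross in every panel: DDX58 was higher at 6 weeks in 7 dogs and lower in 8, and IRF1 was higher in 11 and lower in 4.

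The first question was whether the genes changed over 6 weeks of CHOP. DDX58, the RNA sensor, had the widest spread of change among the 5 and moved in both directions. Its six-week levels were 11.6, 21.1 and 16.7 FPKM in T-cell dogs 028, 036 and 038, against initial levels of 13.6, 11.02 and 61.9 FPKM. In dogs not typed (024, 025, 026, 031_032 and 035) six-week levels were 14.1, 16.6, 15.5, 27.3 and 26.2 FPKM, against 5.17, 50.2, 13.4, 76.4 and 21.7 FPKM at the initial timepoint. In B-cell dogs the lowest, median and highest were 13.8, 34.3 and 78.1 FPKM at 6 weeks and 17.9, 46.2 and 79.8 FPKM initially. Ranges overlapped under every label, and 7 dogs moved by over 2-fold. Dogs 003, 025, 031_032, 034 and 038 were lower, with six-week levels of 0.300, 0.330, 0.357, 0.280 and 0.269 of the initial ones, and dogs 024 and 037 were higher, at 2.73 and 4.36 times.

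SAMD9L followed a like course at a higher level. Six-week levels were 65.4, 113.5 and 127.8 FPKM in T-cell dogs 028, 036 and 038, against 59.0, 49.3 and 291.6 FPKM initially. Dogs not typed, in the order given above, had 122.7, 149.3, 72.2, 134.5 and 320.8 FPKM at 6 weeks, against 104.4, 269.5, 75.7, 209.8 and 374.3 FPKM. The lowest, median and highest B-cell dogs had 98.5, 151.9 and 337.4 FPKM at 6 weeks and 102.1, 236.6 and 330.5 FPKM initially. By FPKM, SAMD9L was lower at 6 weeks in 10 dogs and higher in 5, with ratios between 0.431 in dog 030 and 2.73 in dog 037. The direction in dog 033 depended on the scaling. FPKM summed to 2253173 in its six-week library, the highest of all libraries, and to 1193609 in its initial one. SAMD9L in dog 033 was at 0.933 of the initial level by FPKM. In counts scaled between libraries it was higher, at 827 initially and 1099 at 6 weeks.

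DTX3L, the ubiquitin ligase, varied least. Its six-week levels were 19.01, 32.4 and 21.2 FPKM in T-cell dogs 028, 036 and 038, against 21.2, 22.6 and 39.5 FPKM initially. Dogs not typed had 30.9, 36.6, 27.4, 29.2 and 42.7 FPKM at 6 weeks, against 35.3, 51.3, 26.4, 36.9 and 25.3 FPKM. The lowest, median and highest B-cell dogs had 25.7, 32.2 and 54.0 FPKM at 6 weeks and 30.4, 42.7 and 47.7 FPKM initially. By FPKM the gene was lower at 6 weeks in 10 dogs and higher in 5, and in 0 of the 15 dogs did it move by over 2-fold. In dog 033 it was at 0.846 of the initial level by FPKM, and higher in scaled counts (185 initially, 224 at 6 weeks).

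IRF1, a transcription factor induced by interferon gamma, was higher at 6 weeks in 11 dogs and lower in 4. It had 15.95, 25.4 and 40.7 FPKM at 6 weeks in T-cell dogs 028, 036 and 038, against 13.8, 30.2 and 26.9 FPKM initially. Dogs not typed had 20.3, 45.3, 18.3, 32.1 and 25.1 FPKM at 6 weeks, against 17.3, 15.4, 14.8, 28.1 and 16.8 FPKM. All 5 of these dogs were higher at 6 weeks, for which the two-sided exact sign-flip test gave p = 0.0625, the smallest that 5 dogs allow. The lowest, median and highest B-cell dogs had 7.91, 26.2 and 59.3 FPKM at 6 weeks and 16.9, 19.5 and 49.9 FPKM initially. The highest B-cell dog at both times was dog 029, the one with the high T-cell score.

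BST2, the tether of virus particles, had the lowest levels and a wide spread. T-cell dogs 028, 036 and 038 had 1.54, 9.87 and 14.9 FPKM at 6 weeks, against 0.846, 29.8 and 13.98 FPKM initially. Dogs not typed had 4.67, 13.05, 15.6, 6.49 and 7.12 FPKM at 6 weeks, against 11.1, 3.33, 5.59, 19.8 and 5.22 FPKM. The lowest, median and highest B-cell dogs had 2.60, 9.65 and 25.3 FPKM at 6 weeks and 2.23, 6.10 and 24.9 FPKM initially. BST2 moved by over 2-fold in 6 dogs, with ratios of 0.327 in dog 031_032 to 6.42 in dog 037, and the groups overlapped under every label.

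Across all 15 dogs none of the 5 genes was called, beside 0% of the 14257 genes tested (limma, 0 called). The mean change was 0.27 ± 0.16 (SE) for IRF1 (adjusted p = 0.474, higher in 11 of 15 dogs), -0.32 ± 0.28 for DDX58 (adjusted p = 0.663), -0.24 ± 0.19 for SAMD9L (adjusted p = 0.617), -0.13 ± 0.12 for DTX3L (adjusted p = 0.677) and 0.04 ± 0.26 for BST2 (adjusted p = 0.968). The 95% confidence intervals bound what the data allow: -0.06 to 0.61 for IRF1, -0.92 to 0.28 for DDX58, -0.65 to 0.16 for SAMD9L, -0.38 to 0.12 for DTX3L and -0.51 to 0.59 for BST2. A common change of 2-fold lies outside all 5 intervals. At an unadjusted p under 0.05, 0 of the 5 genes and 1823 of all genes passed. In the counts of 9 dogs edgeR called 0 genes, and DESeq2 617 higher and 516 lower, which are 0% and 9.84% of the 11510 genes tested, with 0 of the 5 genes among the calls of either tool. The median difference of the 5 genes was -0.13, against -0.01 over all genes tested.

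Within the labels none of the 5 genes was called over time in T-cell, not typed or B-cell dogs either, beside 0%, 0% and 0% of the genes tested by limma. At an unadjusted p under 0.05, 2850, 693 and 545 genes passed in these 3 comparisons, and 0 of the 5 genes in each. By unadjusted p, IRF1 in dogs not typed had the lowest value, 0.0639, with a change of 0.55 ± 0.28 (SE, n = 5 dogs, limma adjusted p = 0.955). The lowest limma adjusted p was 0.748, for DTX3L in T-cell dogs. The change in T-cell dogs minus the change in B-cell dogs was called for 0% of genes (2163 at an unadjusted p under 0.05) and for none of the 5. Its intervals were wide, from -1.75 to 1.66 for DDX58 and from -0.77 to 1.51 for SAMD9L, and 3 T-cell dogs give little power. Without dog 038 the change in the other 2 T-cell dogs was 0.34 for DDX58, 0.67 for SAMD9L, 0.17 for DTX3L, -0.03 for IRF1 and -0.52 for BST2, against -0.39, 0.05, -0.17, 0.18 and -0.32 with it. The sign thus turned for DDX58, DTX3L and IRF1 on 1 dog, and none of the 5 genes was called, beside 0.0141% of genes (limma). The change in T-cell dogs minus the change in B-cell dogs was then 0.68 for DDX58, 0.99 for SAMD9L, 0.35 for DTX3L, -0.14 for IRF1 and -0.62 for BST2, against -0.05, 0.37, -0.00, 0.06 and -0.42 with dog 038. Its limma adjusted p without dog 038 was 0.363 to 0.893, beside 0% of genes called.

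**Figure D2:**
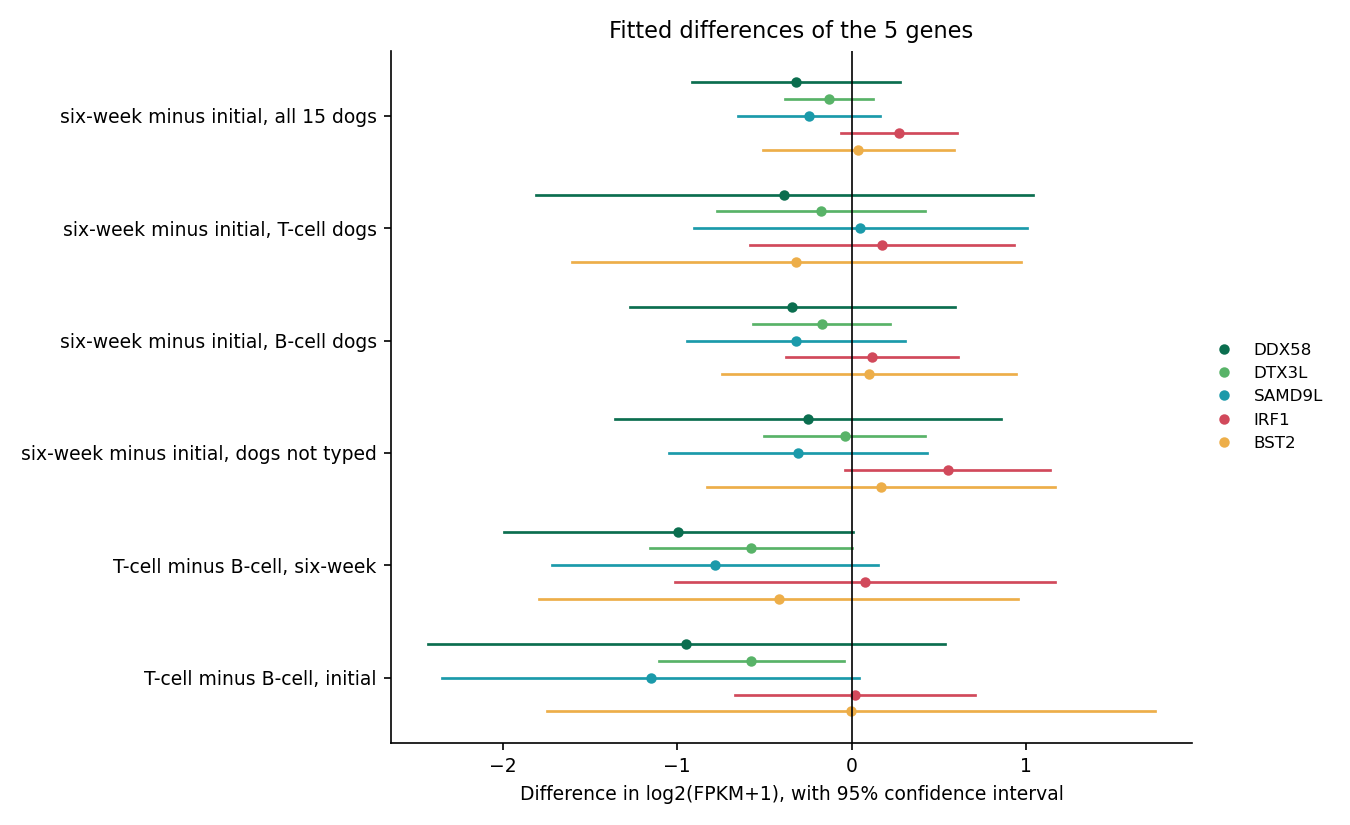
Fitted differences in log2(FPKM+1) of the 5 genes (points) with 95% confidence intervals (lines), for six-week minus initial and T-cell minus B-cell dogs. All intervals over time include 0, and the initial T-cell minus B-cell interval of DTX3L, from -1.10 to -0.05, does not.

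Averages near 0 hid large changes in single dogs. The standard deviation of the change was 1.20 for DDX58, 1.10 for BST2, 0.80 for SAMD9L, 0.64 for IRF1 and 0.46 for DTX3L, against a median of 0.55 over the genes tested. DDX58 and BST2 stood at the 94.0 and 91.7 percentiles of all genes tested by this spread, and DTX3L at the 35.3 percentile. The same genes varied most between dogs before treatment, with initial standard deviations of 1.13 for DDX58 and 1.22 for BST2 against a median of 0.50. Levels of the same dog at the 2 timepoints were at most loosely related. Pearson's r between them over 15 dogs was 0.55 for SAMD9L, 0.54 for IRF1, 0.52 for BST2, 0.32 for DTX3L and 0.26 for DDX58, with permutation p adjusted over the 40 relations computed of 0.0968 to 0.650. Spearman's rho was 0.29 to 0.58 (adjusted p of 0.0872 to 0.549), and r without the 2 dogs farthest from the median was 0.09 to 0.43. In the 9 dogs whose counts followed FPKM r was -0.27 to 0.24, and in the 7 B-cell dogs -0.28 to 0.65.

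The 5 genes did not move as 1 block. DDX58, DTX3L and SAMD9L changed together in the same dogs, and IRF1 and BST2 changed together, while the 6 pairs across these sets showed little relation. The sets were drawn after these values were seen. In dogs 025, 031_032, 034, 036, 037 and 038 the initial library correlated better with another dog's six-week library than with its own partner. Relations between changes, also those with the marker scores given below, were not computed without these dogs. Over 15 dogs the changes of DDX58 and SAMD9L had r = 0.90 and Spearman's rho = 0.89, with a permutation p of 1e-05, the smallest that 100000 permutations can give, and an adjusted p of 4e-04 (rho: permutation p = 2e-05, adjusted 8e-04). The changes of DTX3L and SAMD9L had r = 0.79 and rho = 0.78 (permutation p = 5.3e-04 and 9.3e-04, adjusted 0.0106 and 0.0124). Those of DDX58 and DTX3L had r = 0.77 and rho = 0.81 (permutation p = 8.3e-04 and 2.8e-04, adjusted 0.0111 and 0.0056). IRF1 and BST2 had r = 0.66 and rho = 0.63 (permutation p = 0.00799 and 0.014, adjusted 0.032 and 0.064). The 6 pairs across sets had r between -0.12 and 0.22 and rho between -0.23 and 0.19, with adjusted p of at least 0.68 for r and 0.634 for rho.

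**Figure D3:**
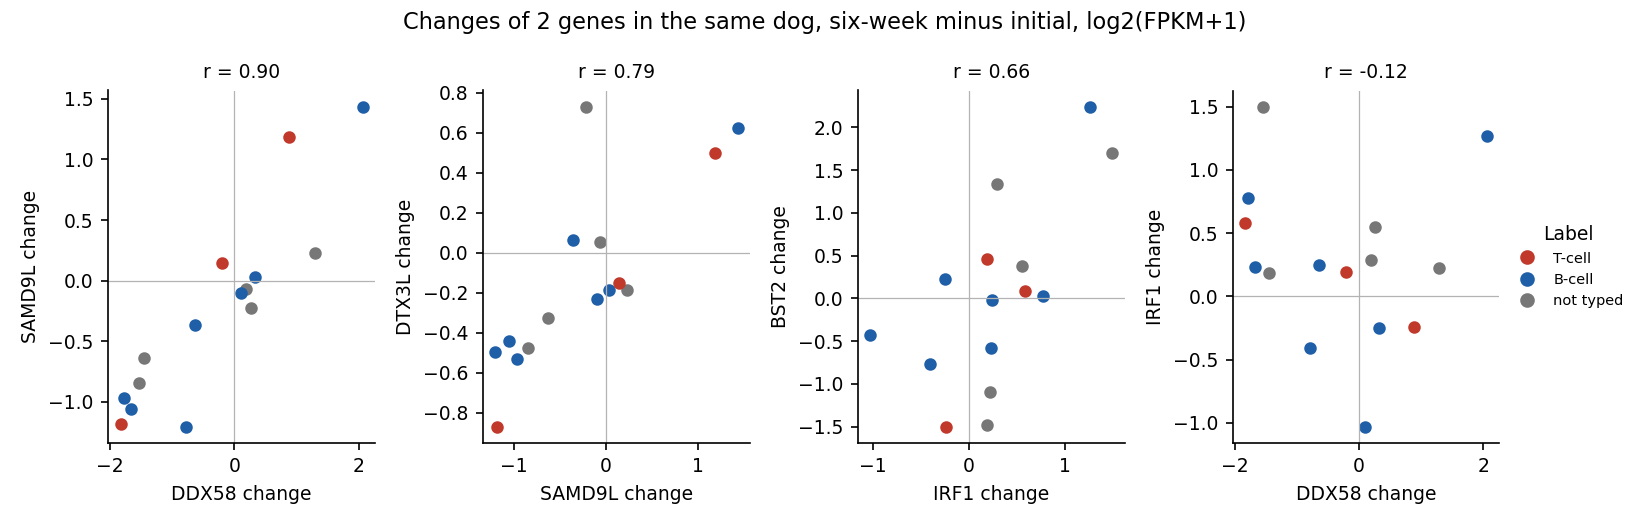
Change in 2 genes of the same dog, six-week minus initial on the log2(FPKM+1) scale, with 1 point for each of the 15 dogs coloured by label and Pearson's r above each panel. Points of SAMD9L against DDX58 lie along a line (r = 0.90), and points of IRF1 against DDX58 are scattered (r = -0.12).

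The relations within the sets held without the 2 dogs farthest from the median of the first gene: r was 0.84 for DDX58 and SAMD9L, 0.88 for DTX3L and SAMD9L, 0.63 for DDX58 and DTX3L and 0.65 for IRF1 and BST2. Leaving out any 1 dog gave 0.56 to 0.93 within the sets and -0.47 to 0.46 across them. The lowest across the sets was for DDX58 and IRF1 without dog 037. Shifting all libraries to 1 median gave 0.54 to 0.90 within the sets and -0.24 to 0.12 across them. Counts scaled to library size in the 9 dogs gave 0.63 to 0.98 within the sets and -0.44 to 0.25 across them. The gap between the sets was not seen in the 7 B-cell dogs alone, where pairs across the sets had r of 0.18 to 0.91 and BST2 moved with SAMD9L (r = 0.91) and DTX3L (r = 0.89).

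The same pairs were related before treatment. The initial levels also enter the changes from which the sets were drawn, so this is not a separate result. Initial levels of DDX58 and SAMD9L had r = 0.76 and rho = 0.68 (permutation p = 0.0014 and 0.00756, adjusted 0.014 and 0.0432), and those of IRF1 and BST2 r = 0.71 and rho = 0.75 (permutation p = 0.0021 and 0.00215, adjusted 0.0168 and 0.0215). DTX3L had r = 0.72 with SAMD9L and 0.68 with DDX58 (permutation p = 0.00324 and 0.00542, adjusted 0.0216 and 0.0271), and rho = 0.63 and 0.73 (permutation p = 0.0144 and 0.00329, adjusted 0.064 and 0.0263). Without the 2 dogs farthest from the median these 4 values were 0.74, 0.68, 0.46 and 0.80, so that the relation of DTX3L with SAMD9L rested partly on T-cell dogs 028 and 036. The 6 pairs across the sets had initial r of 0.13 to 0.25 and rho of 0.00 to 0.29. Without the 2 dogs farthest from the median of the first gene their r was 0.277 to 0.685, the highest for DDX58 and BST2. This overlaps the values within the sets. The 7 B-cell dogs alone also gave an overlap, with r of -0.17 to 0.64 across the sets and 0.53 to 0.85 within them. Scaled counts of the 9 dogs kept the gap, at -0.42 to 0.14 across and 0.665 to 0.951 within.

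The dogs can be read 1 by 1 from these changes. The initial libraries of dogs 025, 031_032, 034, 036, 037 and 038 correlated better with another dog's six-week library than with their own partner. By FPKM, DDX58, DTX3L and SAMD9L were all lower at 6 weeks in 6 dogs (003, 025, 030, 031_032, 034 and 038) and all higher in 2 (036 and 037). In scaled counts all 3 genes were higher in dog 033 too. In 5 of the 6 dogs with all 3 lower, IRF1 was higher, as it was in 11 of all 15 dogs. Dog 030 alone had all 5 genes lower. Dog 025 shows the split most plainly, with DDX58 at 0.330 and SAMD9L at 0.554 of the initial level, and IRF1 at 2.95 and BST2 at 3.92 times it. Dog 036 had the reverse, with DDX58 at 1.92 and SAMD9L at 2.30 times, and BST2 at 0.331 of the initial level. Dog 037 alone had all 5 genes higher, from 1.56 times for DTX3L to 6.42 times for BST2.

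**Figure D4:**
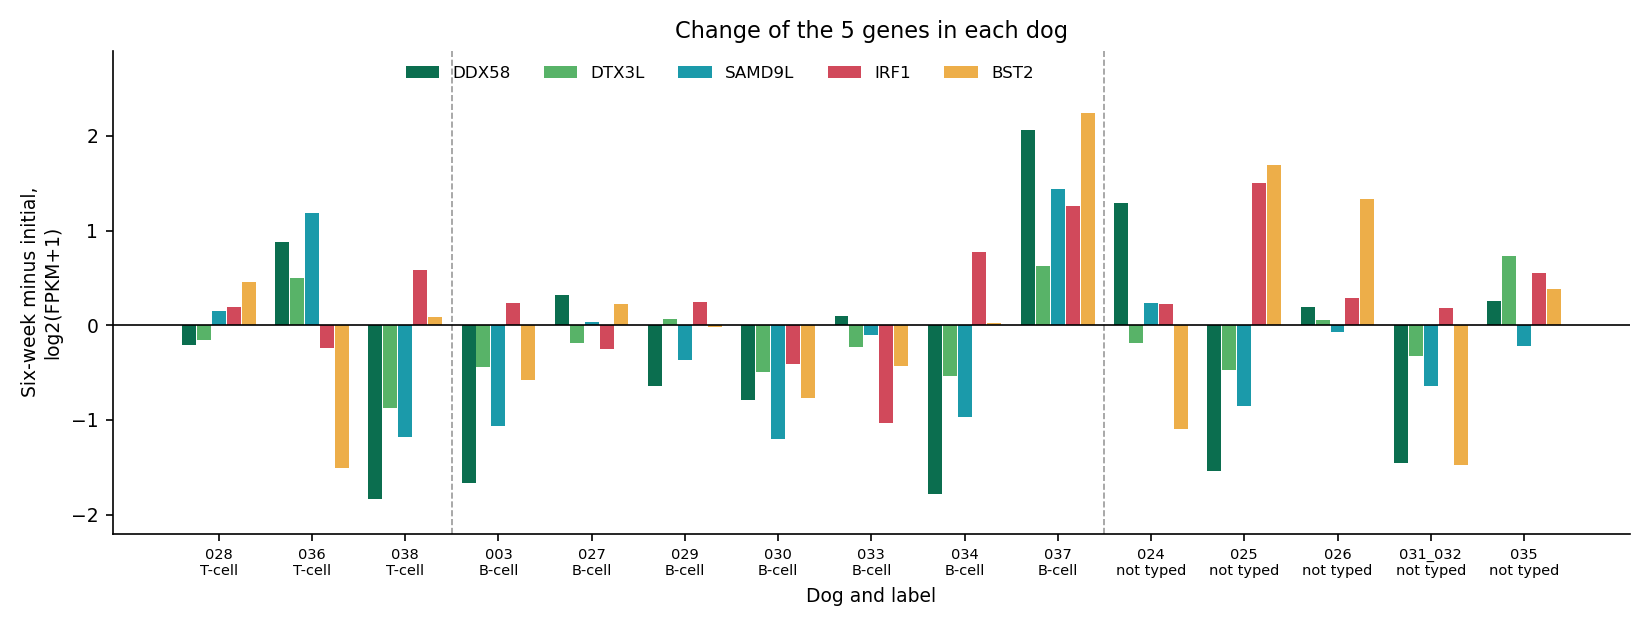
Change of each gene in each dog, six-week minus initial on the log2(FPKM+1) scale, with dogs grouped by label and 5 bars a dog. All bars of dog 037 are above 0 and all bars of dog 030 below it. In dogs 025, 034 and 038 the DDX58, DTX3L and SAMD9L bars point down while IRF1 and BST2 point up. The BST2 bars of dogs 034 and 038 are small, at 0.02 and 0.09.

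Changes of the T-cell score ran opposite to those of DDX58 and SAMD9L, and less clearly opposite to those of DTX3L. With the changes of IRF1 and BST2 the relation was positive and also less clear. In the 6 dogs with DDX58, DTX3L and SAMD9L all lower, the T-cell score changed by -0.13 to 3.78 between timepoints and was higher in 5. In the other 9 dogs it changed by -1.33 to 1.29, and was also higher in dogs 024, 026, 027, 028, 029 and 035. Markers of other cells moved in these dogs too. The dividing-cell score was lower in all 6, with changes of -2.203 to -0.04, and in 6 of the other 9 (-1.48 to 0.51). The B-cell score was lower in 5 of the 6 dogs (-1.84 to 0.42) and in 7 of the other 9 (-1.21 to 3.52, the highest in dog 036). Over 15 dogs the change of the T-cell score had r = -0.69 with that of DDX58 (rho = -0.69, permutation p = 0.00408 and 0.00569, adjusted 0.0233 and 0.0379) and r = -0.67 with that of SAMD9L (rho = -0.61, permutation p = 0.00747 and 0.019, adjusted 0.032 and 0.076). Without the 2 dogs farthest from the median these were -0.65 and -0.68. With the T-cell score DTX3L had r = -0.47 (rho = -0.45, permutation p = 0.0757 and 0.0946, adjusted 0.178 and 0.223). BST2 had r = 0.34 with it (rho = 0.30, permutation p = 0.208 and 0.271, adjusted 0.462 and 0.542). The change of DDX58 had r = 0.47 with that of the dividing-cell score (rho = 0.50, permutation p = 0.0755 and 0.0627, adjusted 0.178 and 0.179). For IRF1 the sign with T cells was the opposite, at r = 0.60 with T cells (rho = 0.57, permutation p = 0.0194 and 0.0283, adjusted 0.0646 and 0.0872) and 0.59 with macrophages (3 of 8 markers found, rho = 0.57, permutation p = 0.0184 and 0.0282, adjusted 0.0646 and 0.0872). The T-cell markers summed to 104.3 to 523.1 FPKM in T-cell dogs, 36.8 to 446.8 FPKM in dogs not typed and 23.4 to 547.4 FPKM in B-cell dogs at 6 weeks, against 38.0 to 744.8, 19.7 to 104.8 and 25.6 to 444.8 FPKM at the initial timepoint. The macrophage markers summed to 3.48 to 249.2 FPKM over all libraries at 6 weeks and 4.67 to 70.1 FPKM initially. The IRF1 value with T cells fell to 0.39 without dog 025. In bulk RNA, fewer cells of a type and less RNA per cell cannot be told apart, and the part of these cells in the changes was not tested.

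The second question was whether the genes differed between T-cell and B-cell lymphoma. At the initial timepoint SAMD9L had 59.0 and 49.3 FPKM in T-cell dogs 028 and 036, below all 7 B-cell dogs, whose lowest value was 102.1 FPKM. Dog 038, the T-cell dog with B-cell markers, had 291.6 FPKM, within the B-cell range. DTX3L and DDX58 showed the same order: dogs 028 and 036 had 21.2 and 22.6 FPKM of DTX3L against at least 30.4 FPKM in B-cell dogs, and 13.6 and 11.02 FPKM of DDX58 against at least 17.9 FPKM, with dog 038 at 39.5 and 61.9 FPKM.

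With all 3 T-cell dogs none of the 5 genes was called at the initial timepoint, beside 0.346% of the 13565 genes tested (limma, 17 higher and 30 lower). The difference was -1.15 ± 0.56 (SE) for SAMD9L (adjusted p = 0.239), -0.95 ± 0.70 for DDX58 (adjusted p = 0.427) and -0.57 ± 0.25 for DTX3L (adjusted p = 0.191), which was the 1 of the 5 genes at an unadjusted p under 0.05, as were 3028 of all genes. The exact two-sided permutation test gave p = 0.05 for DTX3L, 0.133 for SAMD9L and 0.183 for DDX58, where 3 against 7 dogs can reach 0.0167. BST2 and IRF1 differed by -0.00 ± 0.82 and 0.02 ± 0.32. BST2 levels were 0.846, 29.8 and 13.98 FPKM in the 3 T-cell dogs, and spanned the B-cell range of 2.23 to 24.9 FPKM and beyond.

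Without dog 038, SAMD9L and DTX3L were lower in the other 2 T-cell dogs by limma, at -1.96 ± 0.52 (adjusted p = 0.0219) and -0.85 ± 0.26 (adjusted p = 0.0356). The background was then 17.2% of 13548 genes, so 2 of the 5 genes called is a count to set beside a wide difference over all genes. DDX58 stood at -1.70 ± 0.74 (adjusted p = 0.125), and the median of the 5 genes was -0.85, against -0.04 over all genes. Dog 038 thus decided these calls, and the 2 remaining T-cell dogs are few. Without dogs 029 and 038, a choice made after the data were seen, SAMD9L was at -1.93 (adjusted p = 0.0226) and DTX3L at -0.84 (adjusted p = 0.0339).

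**Figure D5:**
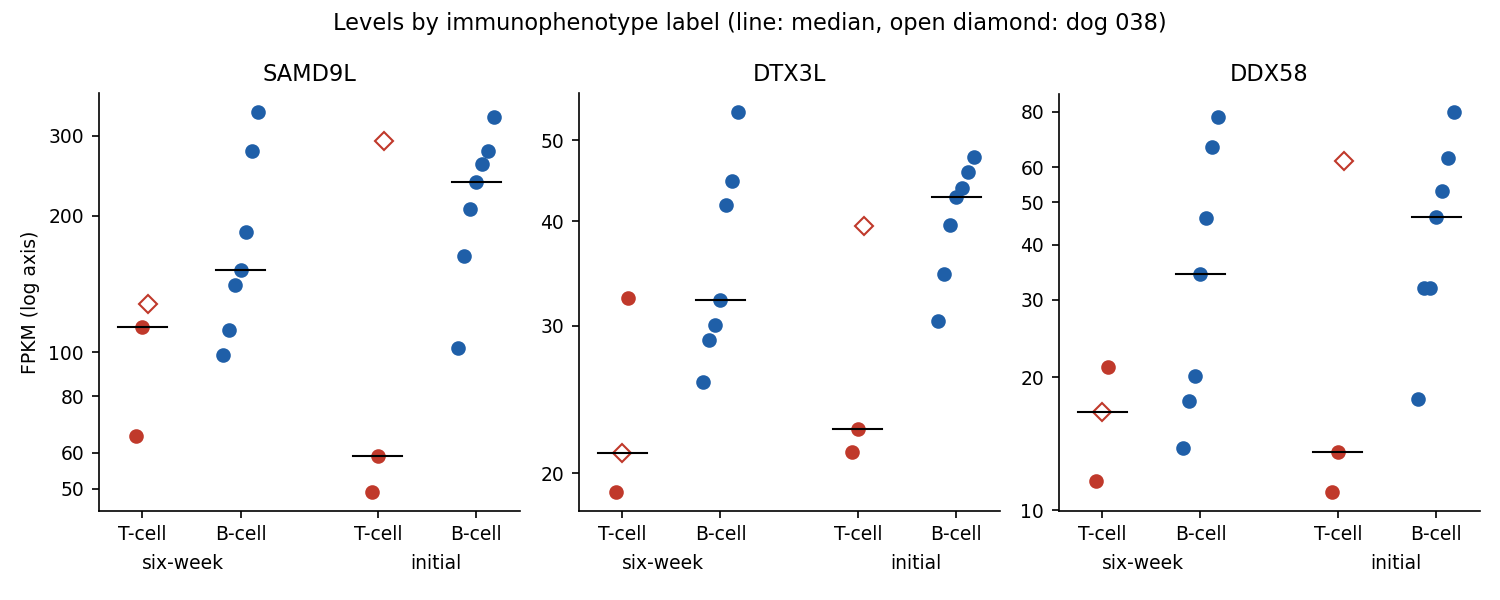
FPKM (log axis) of SAMD9L, DTX3L and DDX58 in T-cell dogs (3) and B-cell dogs (7) at the six-week timepoint (left pair of each panel) and the initial timepoint (right pair), with the median as a line and dog 038 as an open diamond. At the initial timepoint the 2 filled T-cell points lie below every B-cell point in each panel, and dog 038 lies among the B-cell dogs.

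At the six-week timepoint none of the 5 genes was called, beside 0% of the 15346 genes tested (limma, 1257 genes and 0 of the 5 at an unadjusted p under 0.05). The differences were -0.99 ± 0.47 for DDX58, -0.78 ± 0.44 for SAMD9L, -0.58 ± 0.27 for DTX3L, -0.42 ± 0.65 for BST2 and 0.08 ± 0.51 for IRF1, with adjusted p of 0.608 to 0.972. The ranges overlapped in each gene. Without dog 038 the differences were -1.02 for DDX58, -0.97 for SAMD9L and -0.50 for DTX3L, with adjusted p of 0.516 to 0.908 over the 5 genes and none called, beside 0.0527% of genes. SAMD9L was 65.4, 113.5 and 127.8 FPKM in T-cell dogs 028, 036 and 038, against 98.5 to 337.4 FPKM in B-cell dogs. Dog 036 had 2.30 times its initial SAMD9L level and dog 038 0.438 of it, so the gap between them at the initial timepoint, 49.3 against 291.6 FPKM, was 113.5 against 127.8 FPKM at 6 weeks. In dog 036 the B-cell score was 4.25 at 6 weeks against 0.728 initially, and in dog 038 4.49 against 6.09. The T-cell score was 5.11 against 6.44 in dog 036, and 3.99 against 2.73 in dog 038. The macrophage score was higher at 6 weeks in both, at 3.83 against 1.54 in dog 036 and 6.15 against 4.302 in dog 038. The part of these cells in the SAMD9L levels was not tested.

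Of 44 other genes of the pathway, 15 had an ID. By limma 0 of the 15 were called in any of the 7 comparisons, beside 0% to 0.346% of all genes tested. At an unadjusted p under 0.05, 0 to 2 of the 15 passed in each, beside 3.82% to 22.32% of all genes. Without dog 038, a choice made after the data were seen, TBK1 and CIITA were called in the initial T-cell against B-cell comparison, beside the 17.2% of genes given above, and 0 of the 15 in the other 6 comparisons. The interferon kinases had medians of 184.2 FPKM at 6 weeks and 195.9 FPKM initially for JAK1, and of 67.9 FPKM at 6 weeks and 64.6 FPKM initially for JAK2. The adaptor MAVS, which relays the signal of RIG-I, had medians of 4.14 FPKM at 6 weeks and 4.37 FPKM initially. TBK1, the kinase after it, had 42.8 FPKM at 6 weeks and 43.7 FPKM initially. Initial TBK1 levels were 100.02, 85.6 and 33.5 FPKM in T-cell dogs 028, 036 and 038, against 36.1 to 53.95 FPKM in B-cell dogs. The difference was 0.56 ± 0.28 (limma adjusted p = 0.243), and 1.04 ± 0.21 without dog 038 (limma adjusted p = 0.0051). The changes of MAVS and TBK1 over all dogs were -0.12 ± 0.14 and -0.13 ± 0.08 (SE).

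Among 5 interferon gamma targets with an ID were the chemokine CXCL10 and the tryptophan-degrading enzyme IDO1. Over all dogs these were the 2 of the 15 pathway genes at an unadjusted p under 0.05 by limma, beside 12.79% of all genes tested. CXCL10 had a median of 11.4 FPKM (1.45 to 141.4) at 6 weeks and 3.25 FPKM (0.267 to 62.8) initially, a change of 1.20 ± 0.37 (SE, limma adjusted p = 0.286). IDO1 had a median of 9.98 FPKM (0.476 to 81.5) at 6 weeks and 1.48 FPKM (0 to 67.3) initially, a change of 1.23 ± 0.28 (limma adjusted p = 0.185). TAP1, the peptide transporter for MHC class I, changed by 0.05 ± 0.13 and the proteasome subunit PSMB9 by 0.14 ± 0.12. CIITA, the regulator of MHC class II genes, had 1.298, 1.76 and 10.4 FPKM in the initial libraries of T-cell dogs 028, 036 and 038, against 6.31 to 19.1 FPKM in B-cell dogs, so that only dog 038 lay within the B-cell range. The difference was -1.41 ± 0.46 (limma adjusted p = 0.104), and -2.14 ± 0.40 without dog 038 (limma adjusted p = 0.0031).

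The genes whose pattern was most like the mean of the 5 were sought among 14252 genes over the 30 libraries, 2 from each dog, as a description with no test. Of the 10 with the highest Pearson's r, 3 had a symbol: the ubiquitin ligase RNF213 (r = 0.90), ZNFX1 (r = 0.86) and the nucleotidase NT5C3A (r = 0.83). The median r over all genes compared was 0.13. The next with a symbol were STAT4 (r = 0.82), TAP1 (r = 0.80), TRIM22 (r = 0.79), DIP2B (r = 0.76), TRAFD1 (r = 0.75), C11H9orf72 (r = 0.72) and IFIT5 (r = 0.72). Taken gene by gene among those with a symbol, SAMD9L was the closest to DDX58 (r = 0.75) and NT5C3A the closest to SAMD9L (r = 0.84), and OSBP the closest to IRF1 (r = 0.88) and HACD3 to BST2 (r = 0.76).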

How the data were processed

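Per the labels and the submitters' processing notes, total RNA of 30 lymphoma aspirates was sequenced, with HISAT2 2.1.0, StringTie 1.3.3 and CanFam3.1 named. The FPKM values and the read counts per gene, for 32704 Ensembl IDs, were used as the authors deposited them. Symbols came from the ID and name columns of 4 supplementary tables, held here to their first 1998 or 1999 rows each, which named 5086 IDs. The p-values and fold changes in those tables, which are the authors' own comparisons, were not used. The members and lists were chosen with earlier results of these data known.

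log2(FPKM+1) was fitted with limma 3.58.1 in R 4.3.3 for genes with a mean FPKM above 1, blocking on the dog for comparisons over time. Counts of the 9 dogs in which they followed FPKM were fitted with edgeR 4.0.16 and DESeq2 1.42.0 (mean normalized count above 50). Python 3.11.15 with SciPy 1.17.1 gave the permutation tests. The fits were tested on simulated data.

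Libraries were paired by the dog number in their titles, and dog 031_032 by elimination. The deviations of a dog's 2 libraries from their group means correlated with a median of 0.60, above 0.1 in 14 of 15 dogs. Values were -0.11 in dog 025, 0.111 in dog 036, 0.136 in dog 037 and 0.34 in dog 031_032. The initial library correlated best with its own partner in 9 of 15 dogs, and not in dogs 025, 031_032, 034, 036, 037 and 038. The pairing of those dogs thus rests on the titles, and that of dog 031_032 on elimination. p-values measure the spread between dogs, each sampled once a timepoint.

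All members found were named, with values by dog. The genes nearest the members' mean were the 10 with the highest Pearson's r, 3 of them with a symbol; other genes with a symbol, and those nearest to single members, were named after their values were seen. Alternatives were a pseudocount of 0.1, no filter on low values, a variance trend, libraries shifted to 1 median, no block, the counts, and leaving out each dog. Leaving out dogs 029 and 038, or 033 and 036, leaving out dog 038 for the pathway genes, and the checks of the relations were added after seeing the data. Sequences and promoter motifs were not analysed here.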

Additional observations from a re-analysis of the deposited data

Results flagged for a closer look

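IRF1 in the initial libraries of B-cell dogs was 49.9 FPKM in dog 029, against 16.9 to 22.1 FPKM in the other 6 dogs, a sample far from the rest of its group. The same library had a T-cell marker score of 6.00, against 1.84 to 3.56 in the other initial B-cell libraries. Its macrophage score was 4.54 against 2.45 to 3.34, its stroma and vessel score 3.79 against 0.998 to 1.81, and its dividing-cell score 3.69 against 5.08 to 6.18 in those libraries. The part of these cells in the IRF1 level was not tested. IRF1 in the initial libraries of dogs not typed was 28.1 FPKM in dog 031_032, against 14.8 to 17.3 FPKM in the other 4. These were 2 of the 20 groups of values examined. The cutoffs flag about 1 in 20 groups by chance if values are normally distributed, which was not tested for these FPKM values. The groups also share dogs, so they are not independent.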

How the results depend on the processing

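The 5 genes kept 0 calls under every alternative except in the initial T-cell against B-cell comparison, where SAMD9L and DTX3L were called without dog 038 (0 to 2 of the 5 genes over the dogs left out) and without dogs 029 and 038 together (2 of the 5, with 1639 genes higher and 1813 lower in all). Counts over all genes moved far more. Leaving out 1 dog gave 1 to 1061 genes higher and 0 to 1268 lower in that comparison, with the highest counts without dog 038. It gave 0 to 6 higher and 0 to 2 lower for six-week T-cell against B-cell dogs (highest without dog 038), 0 to 793 higher and 0 to 694 lower over time in T-cell dogs, 0 to 322 higher and 0 to 243 lower for the difference in change (both highest without dog 028), and 0 to 1 higher over time in all dogs. With a pseudocount of 0.1, 6 genes were higher in initial T-cell dogs, 1 was lower in six-week T-cell dogs, 12 were higher and 1 lower over time in T-cell dogs, and 3 were higher and 1 lower for the difference in change. Without the filter on low values, 2934 genes were higher and 48 lower over time in all dogs, and 9 higher and 11 lower in initial T-cell dogs. With libraries shifted to 1 median, 42 were higher in initial T-cell dogs. In the counts of 9 dogs, edgeR without a filter called 1 gene lower, and DESeq2 617 higher and 516 lower. The cause of these differences was not tested. Without the replicate block the dog-paired comparisons had 0 calls, as with it, and the change of IRF1 over all dogs was 0.27 (limma adjusted p = 0.9999). The mean change of BST2 over all dogs, 0.04, turned to -0.12 without dog 037, -0.08 without dog 025, -0.05 without dog 026 and -0.06 in unfiltered counts by edgeR. Few T-cell dogs, 1 library a timepoint and 32 members without an ID limit what can be seen.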
